A study of Mus musculus with 8 samples.

Results

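Cytosolic ribosomal protein genes encode the proteins that, with ribosomal RNA, build the large and the small subunit of the ribosome. Here they were taken as probe sets annotated with a single gene symbol made of Rpl or Rps, a number and at most one of the letters a, l or x, or with the symbols Rplp0, Rplp1, Rplp2 or Rpsa, leaving out Rps6k kinases and pseudogenes. The rule found 100 probe sets of 46 genes, 24 of the large and 22 of the small subunit, among 18193 genes that have a probe set with 1 symbol. Of a textbook list of 77 mammalian ribosomal protein genes, 42 were among them, and 34 had no probe set with 1 symbol and were not analysed as genes here. The remaining 4 members (Rpl3l, Rpl39l, Rps4l and Rps27l) are paralogs with an l in their symbol.

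The samples were haematopoietic stem cells sorted from fetal liver by the surface markers Sca-1, AA4.1 and c-Kit, with lineage-positive cells left out. Cells came from Crebbp+/- embryos, which carry 1 wild-type copy of the gene for the coactivator and acetyltransferase CBP, or from wild-type embryos. Both were on a C57BL/6 background, aged 14 days post coitum in one label and 14.5 in another, and 15 embryos were combined per preparation. Each genotype had 2 numbered samples and each sample 2 arrays, so 8 Affymetrix mouse expression arrays were measured. The 2 arrays of a sample were averaged, because nothing in the labels says that they came from separate cells, which gave n = 2 samples per genotype. The labels are also silent on whether different litters supplied the 2 samples, so genotype p-values measure the spread between preparations, which may be technical. For the sample number that spread is itself the difference tested. Its p-values set it against its disagreement between the genotypes, with information from other probe sets.

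Mammalian cells transcribe ribosomal protein genes strongly and keep their products in near-equal amounts, since each protein is needed once per ribosome or nearly so. Their mRNAs typically begin with a C followed by a run of pyrimidines, the terminal oligopyrimidine tract through which mTOR signalling controls their translation. In blood formation the family is known from Diamond-Blackfan anaemia, in which 1 copy of a ribosomal protein gene is mutated, and from myelodysplastic syndrome, in which deletion of a chromosome segment removes 1 copy of RPS14.

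Whether members carry that tract was read only at annotated start sites, which were not checked in these cells. In the RefSeq promoter table (GRCm38.p6), 40 of the 46 genes had an entry, with 48 windows of 300 bases from 250 before to 50 after an annotated start. Of these windows 16.7% began exactly with a C and 4 pyrimidines, against 2.5% of all 32851 windows and 2.4% of the 11121 windows of genes tested here. The members with such a start were Rpl14, Rpl35, Rpl38, Rplp2, Rps6, Rps10, Rps18 and Rps27. The sequences below are those of genes that the comparisons turn on, 3 with such a start and 2 without, from 30 bases before the start to 20 bases into the transcript, with the first 5 transcribed bases in capitals. Rps10 lies at chr17:27635225-27635274 on the minus strand, Rpl14 at chr9:120571487-120571536 on the plus strand and Rpl35 at chr2:39005112-39005161 on the minus strand. Rps9 lies at chr7:3704011-3704060 and Rpl37a at chr1:72711230-72711279, both on the plus strand.
Rps10: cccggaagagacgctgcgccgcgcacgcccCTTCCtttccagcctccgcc
Rpl14: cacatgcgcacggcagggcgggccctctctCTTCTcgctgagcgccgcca
Rpl35: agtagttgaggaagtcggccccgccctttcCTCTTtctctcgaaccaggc
Rps9: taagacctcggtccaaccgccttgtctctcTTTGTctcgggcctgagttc
Rpl37a: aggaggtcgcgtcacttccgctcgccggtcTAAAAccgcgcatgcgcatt

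The Rps9 run of pyrimidines begins before its annotated start and is broken by a G within the capitals, whereas the Rpl37a start holds 1 pyrimidine in 5 bases. A run of 5 or more pyrimidines touched the annotated start in 27.1% of member windows. It did so in 10.1% of all windows and 9.3% of windows of tested genes. On either strand of the whole windows, CCGGAAG, a core bound by ETS factors such as GABP, was present in 41.7% of member windows, against 18.4% of windows of tested genes. TGACGTCA, the full site bound by CREB, the factor after which CBP is named, was present in 4.2% of member windows (those of Rps9 and Rpl27a), against 3.1% of windows of tested genes. The shorter TGACG, which the full site contains, was present in 41.7% of member windows and 31.8% of windows of tested genes. The YY1 core AAGATGG had shares of 14.6% and 7.3%, the SP1 core GGGCGG 50% and 62.7%, the E-box CACGTG 10.4% and 10.1%, and TATAAA 10.4% and 6.9%, in the same order. A match of letters is a description of the window and does not show that a factor binds there.

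Values are GCRMA log2 signals, so that a difference of 1 is a doubling, and a probe set was tested where its mean exceeded 2.72, the median of all probe sets. This left 22518 probe sets and 10600 genes. Per gene, the probe set with the highest mean was used. The brightest Crebbp probe set had signals of 11.95 and 11.66 in Crebbp+/- samples 1 and 2, against 12.07 and 11.41 in wild type, a difference of 0.07 (SE 0.26, limma adjusted p = 0.999), and where it lies relative to the mutation is not given in the sources used here. Of the genes for the gate's own markers, Kit had a mean of 9.26 and Cd93, which encodes AA4.1, 12.19, while Ly6a, the gene for Sca-1, was not analysed here. Of 9 erythroid markers 7 were at or below the filter and Slc4a1 was at 2.84, but Tfrc, the transferrin receptor of dividing cells, was at 10.71. Megakaryocyte markers had list means of 3.59 and 3.79 in Crebbp+/- samples 1 and 2, against 4.33 and 4.58 in wild type, and 3 of 4 were below both wild-type samples in both Crebbp+/- samples. The erythroid means were 3.40 and 3.46 in Crebbp+/-, against 3.28 and 3.31 in wild type, and the granulocyte and monocyte means 4.20 and 4.14, against 4.38 and 4.26. The list means of the genotypes did not overlap in these 3 lists, and their part in the genotype differences below was not tested. By gene, 4 of 9 erythroid markers were above both wild-type samples in both Crebbp+/- samples and 1 (Epor) below. Alas2, Klf1 and Epb42 among the 4, and Epor, had means below the filter. Of the megakaryocyte markers counted as lower, Pf4 had 2.729 in Crebbp+/- sample 1 and 2.730 in wild-type sample 1. Among all genes tested, 17.1% were above and 11.0% below in this way. Of 5 granulocyte and monocyte markers 2 (Itgam and S100a9, below the filter) were above and 1 (Elane) below, unlike the list mean. S100a8 had 3.65 in wild-type sample 1 and 2.77 in every other sample. Hepatocyte markers had mean signals of 4.58 and 4.75 in Crebbp+/- samples 1 and 2, against 3.05 and 5.33 in wild type, and 3 of 10 were at or below the filter.

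Most ribosomal protein genes sat at the top of the signal range. The array table ran from 2.07 to 14.31, and 31 of the 46 members had a mean above 13 and 35 above 12, which is 31 of the 81 genes above 13 in all. Of the 100 probe sets 94 passed the filter, and of the 46 genes 44 did. Rpl3l, a striated muscle paralog of Rpl3, had between 2.32 and 2.34 on the 8 arrays, and Rps16 averaged 2.25, and both stayed below the filter. Each probe set binds its target differently, so genes were not ranked by level.

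**Figure D1:**
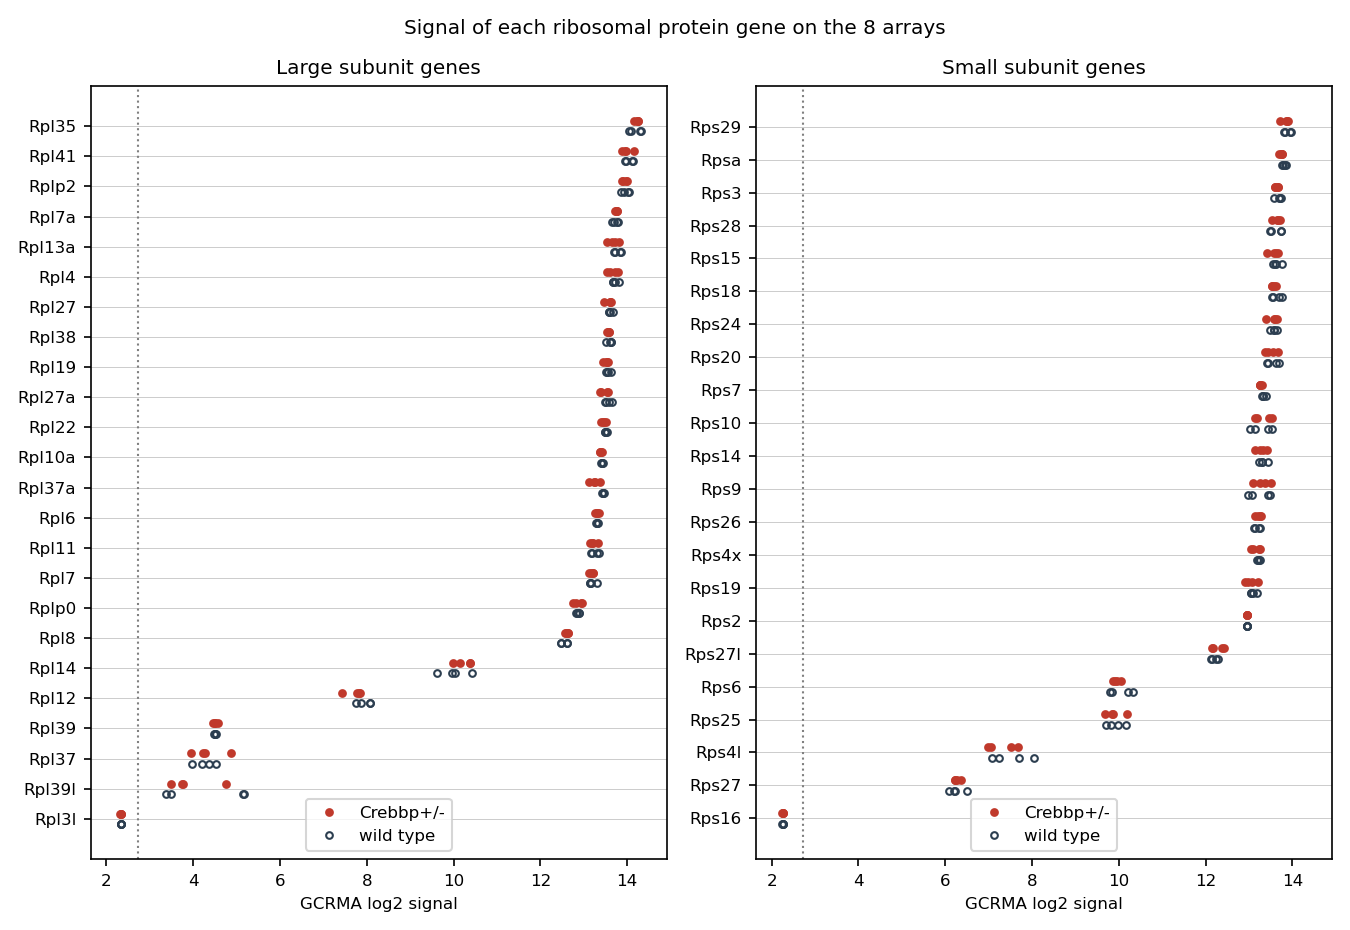
GCRMA log2 signal (x axis) of each of the 46 genes (rows, large subunit left, small subunit right) on the 4 Crebbp+/- arrays (filled, upper) and the 4 wild-type arrays (open, lower), with the filter of 2.72 as a dotted line. Within a gene the arrays lie close together at signals above 13, and 31 of the 46 genes have a mean there.

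Some members with a low signal of their own were also listed on brighter probe sets together with other symbols. Rps16 had a probe set at 2.25 of its own, while 2 further probe sets that list it with other symbols had means of up to 13.32. Rpl39 had 4.51 against 12.99 for 1 shared probe set, Rps27 had 6.27 against 13.93 for 1, and Rpl37 had 4.29 against 5.95 to 13.50 for 3. No shared probe set lists Rpl39l, a paralog of Rpl39 best known from the testis, which had a mean of 4.12. In all, 110 probe sets listed a ribosomal protein gene with other symbols, and 103 passed the filter.

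No ribosomal protein gene differed between the genotypes past the test. Of the 94 member probe sets 0 were called, and 0 had an unadjusted limma p under 0.05, where 0% of all 22518 tested probe sets were called and 1089 had such a p. Differences were small: the median size without sign was 0.05 over the 44 genes and 0.18 over all genes tested. Small size was not particular to the family at its signal level, where signals can be compressed. It was 0.05 over the 31 members above 13 and 0.04 over the 50 other genes above 13. The 95% confidence interval lay within 0.5 of 0 on the log2 scale for 34 of the 44 genes and within 1 for 42. For a single gene, 2 samples in each genotype do not let an exact two-sided permutation test go below p = 0.333. In bulk samples, fewer cells of a type and less RNA per cell cannot be told apart. The 5' minus 3' signals of the Gapdh and Actb controls, given below with the sample number, also differed between the genotypes.

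As a list, the members lay slightly below the rest. Their median difference was -0.03, with 29 of 44 genes lower and 15 higher in Crebbp+/-, and the median over all genes tested was 0.04. Subtracting each array's median adds 0.04 to every gene, which put the members at 0.01, with 20 lower and 24 higher, and all genes at 0.08, so the sign of the members' median depends on the scaling. The members' median minus that of all genes was -0.07 under either scaling and -0.05 after quantile normalization. Members are richer in a class of probe set that also leaned lower over the whole array, with values given below. Within the samples numbered 1 and those numbered 2 the members' medians were -0.03 and -0.03. Of the 44 genes 24 were lower and 6 higher in Crebbp+/- within both numbers, against 2621 and 3945 of 10600 genes. At signals above 13 these counts were 21 and 3 of 31 members, and 15 and 9 of 50 other genes. The differences of single genes did not repeat in size: across the 44 genes those within number 1 and number 2 had a correlation of -0.01, a description over genes, which are not independent.

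Both subunits gave close values. The median difference was -0.03 over 23 large subunit genes, 15 lower and 8 higher (0.01 with the 0.04 that subtraction of array medians adds to every gene), and -0.05 over 21 small subunit genes, 14 lower and 7 higher. Within numbers 1 and 2 the large subunit had medians of -0.03 and -0.02 and the small subunit -0.02 and -0.04. The 103 probe sets that list a ribosomal protein with other symbols had a median of -0.02, with 65 lower and 38 higher and 0 called. The 50 other genes with a mean above 13 had a median of 0.00, and the 31 members above 13 had -0.04.

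Samples of the genotypes overlapped in most genes. In 2 of the 44 genes, Rpl8 and Rps26, both Crebbp+/- samples were above both wild-type samples, where 17.1% of all genes were. In 8 genes both were below both wild-type samples, where 11.0% of all genes were. These were Rpl10a, Rpl12, Rpl13a, Rpl22, Rpl37a, Rpl39l, Rps7 and Rpsa, 6 of the large and 2 of the small subunit. In 1 of them, Rpl37a, all 4 Crebbp+/- arrays were below all 4 wild-type arrays, where 1.99% of all genes were, and in 0 members all were above, where 3.68% of all genes were.

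**Figure D2:**
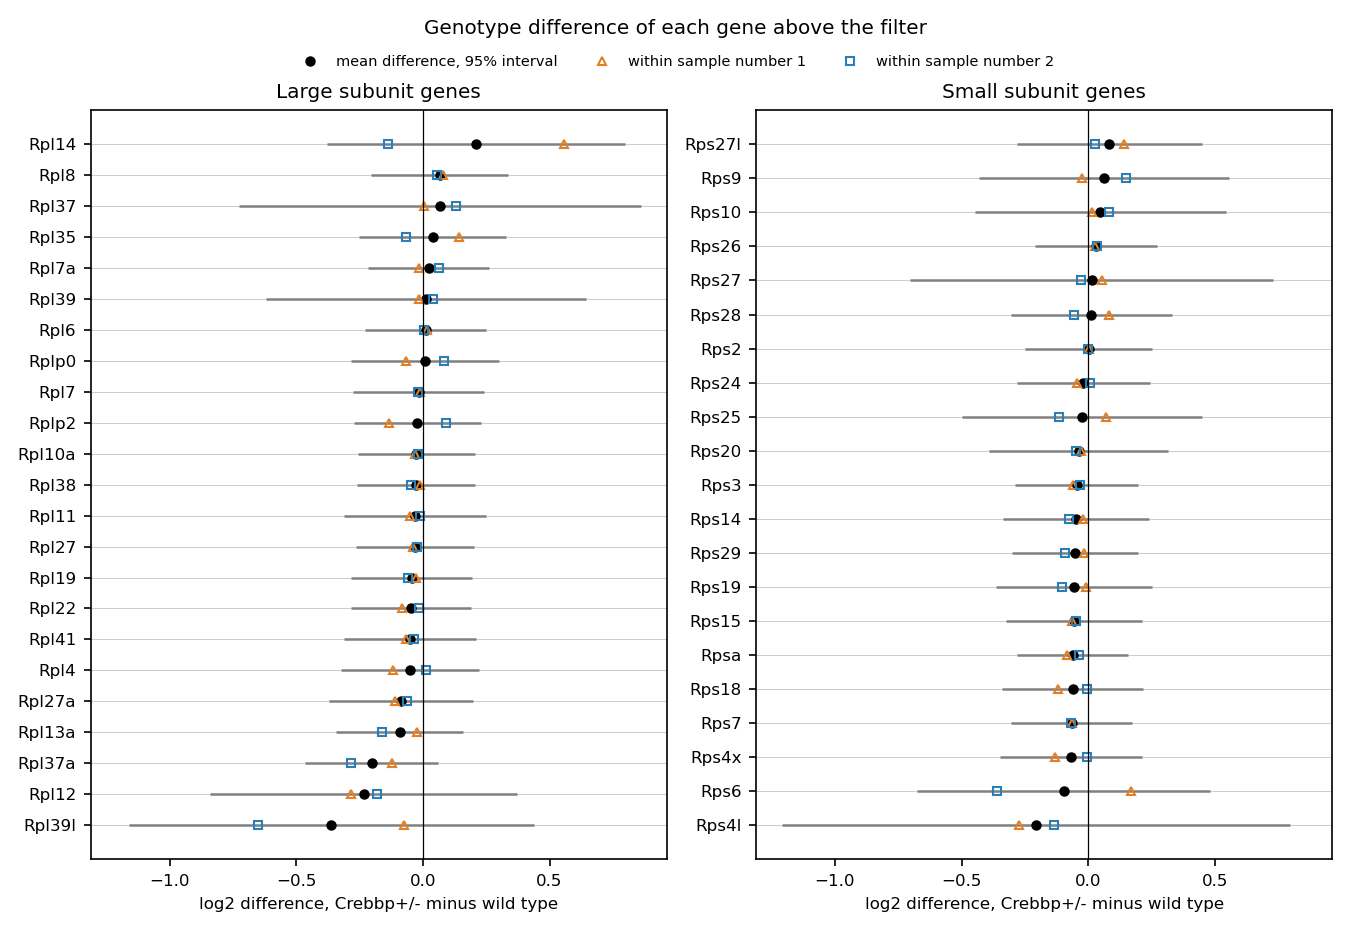
Log2 difference, Crebbp+/- minus wild type (x axis), of the 23 large and 21 small subunit genes above the filter (rows, ordered by difference), with the 95% confidence interval of the limma fit (line), the mean difference (dot) and the differences within sample numbers 1 (triangle) and 2 (square). Every interval crosses 0; the mean differences run from -0.36 for Rpl39l to 0.21 for Rpl14. Subtraction of array medians would move every point right by 0.04.

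The following 4 genes had the lowest p among those lower in Crebbp+/-. Rpl37a, a small zinc-binding protein of the large subunit, had signals of 13.26, 13.37, 13.23 and 13.13 on the Crebbp+/- arrays, against 13.45, 13.42, 13.44 and 13.48 in wild type. The arrays did not overlap, yet the difference was -0.20 (SE 0.10, 95% interval -0.46 to 0.06, limma adjusted p = 0.991), and it was -0.12 and -0.28 within numbers 1 and 2. Its other bright probe set differed by -0.27 and its dim one by -0.05.

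Rpl39l had 3.76, 4.75, 3.48 and 3.75 on the Crebbp+/- arrays, against 3.48, 5.18, 3.38 and 5.15 in wild type. The 2 arrays of wild-type sample 2 gave the 3.38 and the 5.15, and the difference of -0.36 had an interval from -1.16 to 0.44. Rpl12, a protein at the base of the stalk, had 7.43, 7.83, 7.77 and 7.82 on the Crebbp+/- arrays, against 8.08, 7.76, 8.08 and 7.88 in wild type. It differed by -0.23 (SE 0.23), and the lowest Crebbp+/- array stood apart from the other three. Rpl13a, which in human cells also takes part in silencing of inflammatory transcripts, had 13.55, 13.81, 13.72 and 13.64 in Crebbp+/-, against 13.69, 13.71, 13.86 and 13.83 in wild type. Its difference was -0.09 (SE 0.10).

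On the other side, the 4 lowest p belonged to Rpl14, Rpl8, Rps27l and Rpl35. Rpl14, a large subunit protein, had 10.38, 10.38, 10.14 and 9.98 on the Crebbp+/- arrays, against 9.62, 10.03, 9.97 and 10.43 in wild type. The arrays overlapped, and its difference of 0.21 (SE 0.22, limma adjusted p = 0.991) was 0.56 within number 1 and -0.14 within number 2. Rpl8, which lies close to the peptidyl transferase centre, had 12.60, 12.64, 12.63 and 12.57 in Crebbp+/-, against 12.60, 12.48, 12.48 and 12.61 in wild type. It differed by 0.07 (SE 0.10), with both Crebbp+/- samples higher.

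Rps27l, a p53 target gene, had 12.38, 12.42, 12.16 and 12.17 on the Crebbp+/- arrays, against 12.28, 12.24, 12.14 and 12.13 in wild type, a difference of 0.08 (SE 0.14). Both arrays of sample 1 exceeded those of sample 2 in each genotype. Rpl35, a protein of the rim of the peptide exit tunnel, had 14.16, 14.24, 14.22 and 14.25 in Crebbp+/-, against 14.03, 14.08, 14.30 and 14.31 in wild type. It differed by 0.04 (SE 0.11), 0.14 within number 1 and -0.07 within number 2. Rpl12, Rpl13a, Rpl14, Rpl37a and Rpl8 kept their sign under each of the 22 alternatives run for them, and Rpl35, Rpl39l and Rps27l did not. Several of these alternatives alter only the test or the filter and leave the difference of a gene unchanged, so its sign could not change there.

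By role in the ribosome, 0 members of any group were called for genotype. The acidic stalk recruits translation factors. Its protein Rplp0 had sample signals of 12.79 and 12.95 in Crebbp+/-, against 12.85 and 12.87 in wild type, and Rplp2 had 13.89 and 13.98, against 14.03 and 13.89. Rplp0 differed by 0.01 (SE 0.11) and Rplp2 by -0.02 (SE 0.10). Rpl11 binds Mdm2 and stabilises p53 when ribosome assembly fails. It had 13.27 and 13.17 in Crebbp+/-, against 13.32 and 13.18 in wild type, a difference of -0.03 (SE 0.11).

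Along the peptide exit tunnel and its rim, 6 of 9 listed genes were tested, with a median of -0.04. Rpl22 (-0.05, SE 0.09) and Rpl4 (-0.05, SE 0.10) had the lowest p. Rpl22 is deleted or mutated in some human leukaemias. Of a further list of 4 large subunit genes, Rpl8 (0.07) and Rpl27 (-0.03, SE 0.09) were tested. In the head of the small subunit, which contacts the anticodon ends of the tRNAs, 9 of 14 were tested, with a median of -0.05, and Rps18 (-0.06, SE 0.11) and Rps29 (-0.05, SE 0.10) had the lowest p. In its body, platform and mRNA channel 10 of 17 were tested, with a median of -0.03, and Rpsa (-0.06, SE 0.08) and Rps7 (-0.07, SE 0.09) had the lowest p.

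The genes mutated in Diamond-Blackfan anaemia or deleted in myelodysplastic syndrome gave 11 tested of 17 listed, with a median of -0.03, 7 lower and 4 higher in Crebbp+/- and 0 called. Rps19, the gene most often mutated in that anaemia, had 13.07, 13.20, 12.97 and 12.91 on the Crebbp+/- arrays, against 13.18, 13.10, 13.04 and 13.04 in wild type. The arrays overlapped, and the difference was -0.06 (SE 0.12, 95% interval -0.36 to 0.25, limma adjusted p = 0.994). Rps14 had 13.31, 13.40, 13.14 and 13.25 in Crebbp+/-, against 13.44, 13.31, 13.30 and 13.23 in wild type. It also overlapped and differed by -0.05 (SE 0.11, interval -0.34 to 0.24). Both intervals leave out a difference of -1, that is, loss of 1 log2 unit of signal. Both genes average above 13, where signals can be compressed, so the intervals do not bound the change in amount of mRNA.

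Among the paralogs, Rps4l had 7.52, 7.68, 7.05 and 6.99 on the Crebbp+/- arrays, against 8.05, 7.70, 7.24 and 7.07 in wild type. Its difference of -0.20 had an SE of 0.38, and within each genotype sample 2 lay below sample 1. Ribosomal proteins outside the symbol rule gave 4 tested genes with a median of 0.00. Of these Rpl22l1, a paralog of Rpl22, differed by -0.11 (SE 0.11) and Rpl7l1 by 0.13 (SE 0.22).

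Of the genes that act with the ribosome, 0 passed the genotype test. The other mRNAs known to carry a terminal oligopyrimidine tract, mostly translation factors, had a median of 0.00 over 17 tested of 18 and 0 calls, with the lowest p for Eif3e (0.17, SE 0.15) and Eif4b (0.27, SE 0.25). Upstream regulators of ribosomal protein synthesis had a median of 0.06 over 11 tested of 12 and 0 calls. Tsc2, a repressor of mTOR signalling, had 5.88 and 6.05 in Crebbp+/-, against 5.20 and 5.33 in wild type, a difference of 0.70 (SE 0.28, limma adjusted p = 0.991). Mtor itself differed by 0.36 (SE 0.26). Factors known at ribosomal protein promoters had a median of 0.19 over 8 genes and 0 calls, with the lowest p for Sp1 (0.43, SE 0.28) and Ep300 (0.24, SE 0.18). The 76 mitochondrial ribosomal protein genes, which serve the separate ribosome of that organelle, had a median of 0.05, with 48 higher and 28 lower in Crebbp+/- and 0 called. Mrpl41 (-0.51, SE 0.14) and Mrpl45 (0.57, SE 0.27) had the lowest p among them.

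Members differed more with the sample number than with genotype: the median size of the difference without sign was 0.11 for the number and 0.05 for genotype, and over all genes 0.28 and 0.18. Over the 50 other genes above 13 the sizes were 0.12 and 0.04. Within a genotype the 2 samples of a member differed with a median SD of 0.09, against 0.26 over all genes, and of 0.08 for the 31 members above 13 and 0.09 for the 50 other genes above 13. The number 2 minus number 1 difference had the same sign in Crebbp+/- and wild type in 37 of 44 members and in 7747 of 10600 genes. Across members the 2 genotypes' differences had a correlation of 0.59, close to the 0.58 over all genes, and of 0.28 over 23 large and 0.82 over 21 small subunit genes. These are descriptions over genes that share the same 4 samples. What a number stands for is not in the labels.

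Several measures moved with the number. The 5' minus 3' signal of the Gapdh control, which falls as RNA degrades, was -1.88 in sample 2 and -0.89 in sample 1 of Crebbp+/-, and -2.59 in sample 2 and -1.22 in sample 1 of wild type. The same measure for Actb was -2.55 and -1.90 in Crebbp+/- and -3.19 and -2.13 in wild type, in that order. Both measures also differed by genotype, being lower in wild type within each number. Crebbp+/- minus wild type was 0.52 for Gapdh and 0.44 for Actb. Macrophage markers averaged 4.35 in sample 2 and 3.84 in sample 1 of Crebbp+/-, and 4.32 in sample 2 and 3.97 in sample 1 of wild type. Of these 7 genes 4 were higher in sample 2 of both genotypes, and Csf1r, the receptor that macrophages share with myeloid progenitors, had 10.90 in sample 2 and 9.31 in sample 1 of Crebbp+/-, and 10.76 and 9.81 in wild type in that order. Adgre1, C1qa, Marco and Vcam1 had means below the filter, and Adgre1 and Marco were among the 4 higher genes. Of 7 genes on a stem cell list, 4 were lower and 2 higher in sample 2 of both genotypes. Lower were Kit, Cd93, Cd48 and Procr, and higher were Cd34 and Slamf1. Cd48 and Ptprc, also on that list, are not particular to stem cells. Means over the 7 genes were 9.33 in sample 2 and 9.38 in sample 1 of Crebbp+/-, and 9.26 and 9.45 in wild type in that order. Hepatocyte markers averaged 4.75 in sample 2 and 4.58 in sample 1 of Crebbp+/-, and 5.33 in sample 2 and 3.05 in sample 1 of wild type. The part of these measures in the differences by number or by genotype was not tested.

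Members differed in both directions with the number. The median difference was 0.02 over the 44 genes, 24 higher and 20 lower in number 2, against 0.03 over all genes tested. Quantile normalization gave 0.00 with 22 on each side. By subunit the median differences were 0.03 and 0.00 for large and small. The median signal over members, in contrast, changed by -0.11 in Crebbp+/- and -0.10 in wild type. Over large subunit members it changed by 0.00 and 0.02, over small ones by -0.14 and -0.14, and over all genes by 0.05 and 0.00. The direction for the family thus depends on the summary used. Both samples numbered 2 were above both numbered 1 in 16 members, where 30.9% of all genes were, and below in 15, where 25.7% were. Called in a fit with genotype as a term were 0 members higher in number 2, where 3.85% of genes were, and 2 lower, where 6.84% were.

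Rps10 and Rps9 fell in number 2. Rps10, a protein of the small subunit head, had 13.18 and 13.14 on the sample 2 arrays and 13.46 and 13.52 on the sample 1 arrays of Crebbp+/-. In wild type it had 13.01 and 13.15 in sample 2 and 13.52 and 13.43 in sample 1. The numbers did not overlap, and the difference was -0.36 (SE 0.06, 95% interval -0.51 to -0.22, limma adjusted p = 0.0241).

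Rps9, at the mRNA entry channel, had 13.26 and 13.08 in sample 2 and 13.36 and 13.50 in sample 1 of Crebbp+/-. In wild type it had 12.97 and 13.07 in sample 2 and 13.48 and 13.44 in sample 1. It differed by -0.35 (SE 0.07, adjusted p = 0.0331) with no overlap. Both calls rest on a fit with 1 residual degree of freedom: they were lost with no filter (adjusted p = 0.391 and 0.415), with no intensity trend (0.266 and 0.287) and with no genotype term (0.178 for both). Leaving out array 2 of Crebbp+/- sample 2 (0.0527 and 0.0986), array 2 of wild-type sample 1 (0.0574 and 0.0695), array 1 of wild-type sample 2 (0.0665 and 0.0773) or array 2 of wild-type sample 2 (0.0501 and 0.0616) ended them too.

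Beside these, the largest differences of the same sign in both genotypes did not pass. Rps4l, given above, differed by -0.65 (SE 0.20, adjusted p = 0.0867) and Rpl39l by -0.35 (SE 0.28). On the other side, Rpl37, a large subunit protein measured here at low signal, averaged 4.57 in sample 2 and 4.09 in sample 1 of Crebbp+/-, and 4.44 in sample 2 and 4.08 in sample 1 of wild type. It differed by 0.42 with an SE of 0.26.

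Rps20, of the small subunit head, had 13.67 and 13.56 in sample 2 and 13.36 and 13.44 in sample 1 of Crebbp+/-. In wild type it had 13.70 and 13.63 in sample 2 and 13.41 and 13.44 in sample 1. All sample 2 arrays were higher, and the difference was 0.23 (SE 0.06, adjusted p = 0.0573), just outside the threshold. It passed without array 2 of Crebbp+/- sample 1 (0.0465), after subtraction of 75th percentiles (0.0237), with robust eBayes (0.0464), in the upper 25% of probe sets (0.00418), with 8 arrays as separate samples (0.0054) and with the numbered sample as a random block (0.00166). Rps28 had 13.67 and 13.71 in sample 2 and 13.53 and 13.63 in sample 1 of Crebbp+/-, and 13.75 and 13.75 in sample 2 and 13.51 and 13.49 in sample 1 of wild type, a difference of 0.18 (SE 0.06). Rps27 differed by 0.15 (SE 0.25). Of the 11 tested genes of the anaemia list, 7 were higher and 4 lower in number 2, with a median of 0.03 and Rps10 alone called.

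Different probe sets of 1 gene moved in opposite directions with the number. At the level of probe sets, 4 members were called higher in number 2, where 3.15% of all were, and 5 lower, where 6.66% were. Of 21 genes with 2 or more probe sets above the filter, 14 had probe sets of opposite sign for the number and 10 for genotype. In 2 genes, Rpl41 and Rps18, the probe sets were more than 1 log2 unit apart in opposite directions for the number, and in 0 for genotype.

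Rpl41, the smallest ribosomal protein, had 2 bright probe sets with differences of -0.13 (SE 0.05) and -0.17 (SE 0.06). Its 2 dimmer ones, at mean signals of 10.60 and 10.09, were called higher in number 2 by 0.70 (SE 0.12, adjusted p = 0.0253) and 0.86 (SE 0.18, adjusted p = 0.0362). Rps18 had 6 probe sets, from 0.23 (SE 0.07) for one at a mean signal of 13.03 to -1.06 (SE 0.24, adjusted p = 0.0428) for one at 6.88. Rps9 itself had a second probe set, at 12.64, that was called higher in number 2 by 0.34 (SE 0.07, adjusted p = 0.0333), close in size to the fall of its brightest and of opposite sign. The 5 other probe sets of Rps10 ran from -0.13 to 0.26 and 0 of them were called. The calls for Rps10 and Rps9 are thus calls of 1 probe set each. The widest spread for genotype was in Rps24, where 4 bright probe sets lay between -0.08 and 0.00 and a dim one at 5.66 differed by -0.95 (SE 0.40, limma adjusted p = 0.991).

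**Figure D3:**
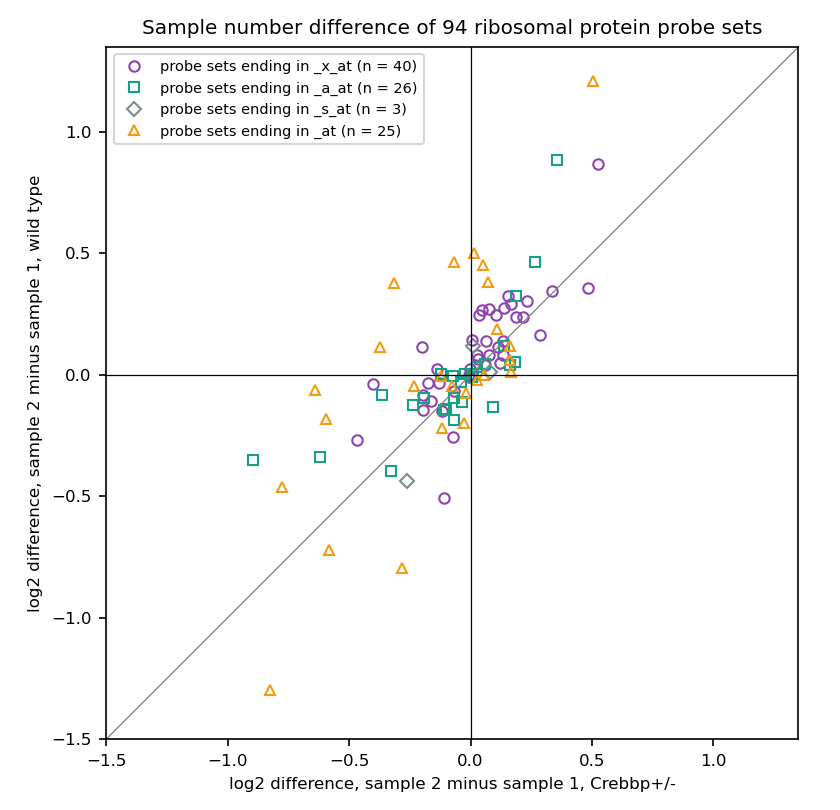
Log2 difference, sample 2 minus sample 1, in Crebbp+/- (x axis) and in wild type (y axis) for the 94 member probe sets above the filter, with the symbol giving the ending of the probe set ID and the grey line equality. Probe sets with larger differences lie mostly in the upper right and lower left, and the brightest probe sets of Rps10 (-0.33 and -0.40) lie below and left of 0.

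The class of a probe set went with its number difference. On this array an ID ending in _x_at marks probes that may bind related sequences, and one ending in _a_at marks probes shared by transcripts of the same gene. Over member probe sets the median number difference was 0.08 for 40 ending in _x_at, 25 higher and 15 lower, and -0.04 for 26 ending in _a_at, 9 higher and 17 lower. It was -0.05 for 25 with the plain ending _at. Over all tested probe sets the medians were 0.25, 0.01 and -0.03 in the same order, so the classes stood in the same order among all probe sets. Restricted to signals above 12, the medians were 0.08 for 31 and -0.05 for 24 member probe sets ending in _x_at and _a_at, and 0.18 for 151 and 0.07 for 165 of other probe sets. For genotype the medians were -0.02, -0.03 and -0.06 over member probe sets ending in _x_at, _a_at and _at. Over all tested probe sets, 1497 of them ending in _x_at, they were -0.05, 0.04 and 0.02. Above 12 they were -0.03, -0.03 and -0.04 over members and -0.03, -0.01 and 0.05 over other probe sets. What part the class had in the members' lower genotype median was not tested.

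Within genes the pattern depended on the signal level. Of 9 members with both kinds of probe set above 12, 7 had a higher number difference for _x_at than for _a_at in Crebbp+/-, and the same 7 in wild type. The median gap was 0.18 in Crebbp+/- and 0.14 in wild type. Over the 12 members with both kinds at any signal above the filter, a comparison chosen after seeing the data, 6 had the higher value for _x_at in both genotypes, and the median gaps were 0.09 and 0.08. Above 12, Rpl13a had the widest gap, 0.00 for _x_at and -0.89 for _a_at in Crebbp+/-, and 0.14 and -0.35 in wild type. A second _a_at probe set of Rpl13a, at a mean signal of 11.44, had 0.26 in Crebbp+/- and 0.47 in wild type, above both of its _x_at probe sets. Rpl37a had -0.14 and -0.62 in Crebbp+/-, and 0.02 and -0.34 in wild type. Rps28 and Rps7 had the opposite order in both genotypes, as had Rps20 and Rps4x at any signal. Where along the transcript these probes lie was not analysed here.

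**Figure D4:**
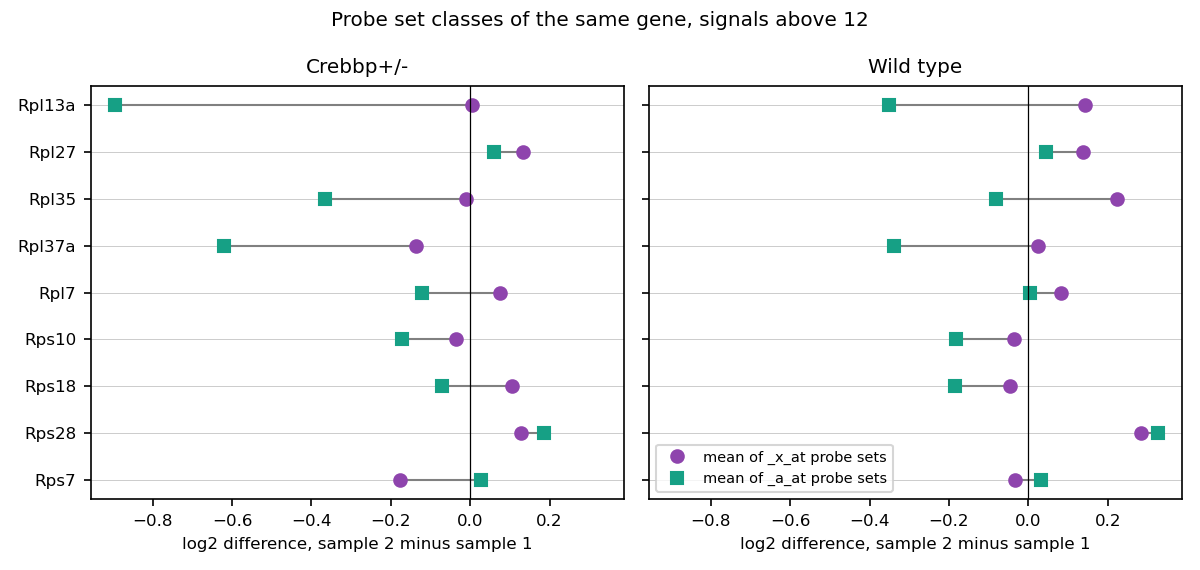
Log2 difference, sample 2 minus sample 1 (x axis), of the 9 genes (rows) with probe sets of both classes at mean signals above 12, in Crebbp+/- (left) and wild type (right), as the mean over _x_at (circle) and over _a_at probe sets (square). The circle lies right of the square in 7 of 9 genes in both genotypes.

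In related gene groups most genes did not pass for the number, and calls went both ways. Of the 17 other terminal oligopyrimidine mRNAs tested, 2 were called higher in number 2 and 4 lower, where 3.85% and 6.84% of all genes were. Vim, an intermediate filament gene, differed by 0.36 (SE 0.07, adjusted p = 0.0281) and Eif3f by 0.36 (SE 0.08, adjusted p = 0.0368). The lower ones were Btf3 (-0.55, SE 0.09, adjusted p = 0.0236), Eif3h (-0.40), Eif4b (-0.46) and Eif3k (-0.33), a nascent chain partner and translation initiation factors. Of the upstream regulators, Eif4ebp2 was higher by 0.63 (SE 0.12, adjusted p = 0.0314) and Larp1, which binds the tract, lower, with a difference of -0.66 (SE 0.13, adjusted p = 0.0331). Of the promoter factors, Gabpb1 (-0.93, SE 0.12, adjusted p = 0.0173) and Crebbp itself (-0.47, SE 0.11, adjusted p = 0.0436) were lower in number 2. The mitochondrial ribosomal protein genes had a median of -0.11, with 5 called higher and 6 lower of 76, beside the same shares of all genes, led by Mrpl24 (-0.98, SE 0.10, adjusted p = 0.0148) and Mrpl9 (1.06, SE 0.14, adjusted p = 0.0178). Each of these calls comes from the same fit with 1 residual degree of freedom, which called 2209 of 22518 probe sets and called 0 with no filter, no intensity trend or no genotype term.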

How the data were processed

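The authors deposited log2 signals from GCRMA, per the submitters' processing notes. The version and options of GCRMA were not given in the sources used here. Per the labels' protocols, 12 ng of total RNA was amplified and labelled with biotin. GCRMA adjusts background and equalises array distributions, so a shift common to most genes is removed, and signals near the top of the range can be compressed. The number of arrays limits the precision. Probe sets were named from the platform annotation, and the gene identifiers of 34741 probe sets matched the GRCm38.p6 gene table, with no symbol changed. A probe set with several symbols named no gene.

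Arrays of a sample were averaged. The 22518 probe sets with a mean above 2.72 entered lmFit and eBayes with an intensity trend (R 4.3.3, limma 3.58.1), with Benjamini-Hochberg adjustment over all of them and a threshold of 0.05. Residual degrees of freedom were 2 for genotype and 1 for sample number with genotype as a term, and total ones 4.75 and 6.49. The procedure was tested on simulated data.

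Genes named were, for each direction, the 4 with the lowest genotype p and the 4 with the largest number difference of the same sign in both genotypes, the stalk, Rpl11, paralogs, Rps14, Rps19, and genes with probe sets opposed by more than 1. In other lists the 2 with the lowest p were named. Members outside these, and probe sets of Rps24, were chosen after their values were seen. The members and lists were chosen with earlier results of these data known.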

Additional observations from a re-analysis of the deposited data

Results flagged for a closer look

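Among 46 groups of 4 arrays (23 named genes in 2 genotypes), 1 had an array far from the others by Dixon's 95% critical value of 0.829. Rpl12 had a signal of 7.43 on the lowest Crebbp+/- array, while the other three lay between 7.77 and 7.83. If the 4 arrays of a group were independent, chance would give such an array in about 1 in 20 groups. They are 2 arrays from each of 2 samples, so that rate is only a guide.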

How the results depend on the processing

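Under 23 alternatives 0 member probe sets were called between genotypes, including a fit in which a replicate block held the sample number (0 called). Same-numbered samples deviated together, with a correlation of 0.55 over 22518 probe sets and 0.73 over 94 member probe sets, but with 2 numbers of unstated meaning the numbers were not taken to pair the samples. The genotype median over members lay between -0.044 and 0.00943 and that over small subunit genes between -0.062 and -0.00597. Over large subunit genes it was 0.012 after subtraction of array medians, which adds 0.040 to every gene, and -0.011 after quantile normalization, and it ran from -0.053 to -0.00569 with samples or arrays left out. The number median was 0.070 after subtraction of 75th percentiles. Member probe sets called for the number were 9, against 22 with 8 arrays as separate samples, 37 with the numbered sample as a random block, 25 in the upper 25% of probe sets, 17 at a threshold of 0.1, 16 after subtraction of 75th percentiles, and 0 with no filter, no genotype term or no intensity trend. Leaving out single arrays gave 0 to 14: 0 without array 2 of Crebbp+/- sample 2, array 2 of wild-type sample 1, or either array of wild-type sample 2; 4 without array 1 of sample 1 in either genotype; and 14 without array 2 of Crebbp+/- sample 1. Over all probe sets the number calls went from 2209 to between 0 and 6504; the cause was not tested. Of the 22 named genes above the filter, 0 gained a genotype call under an alternative. For the number 10 gained a call, mostly with the numbered sample as a random block or with 8 arrays as separate samples, 2 lost theirs and 0 called differences changed sign. Leaving out a whole sample gave the number fit no residual degrees of freedom, so it had values and no test.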
